A study of Arabidopsis thaliana with 28 samples.

Results

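The genes described here encode the core of nuclear auxin signalling: 4 auxin receptors (TIR1, AFB1, AFB2 and AFB3), the 29 Aux/IAA repressors (IAA1 to IAA20 and IAA26 to IAA34) and 15 AUXIN RESPONSE FACTORs (ARF1 to ARF11 and ARF16 to ARF19). They were taken by locus identifier from a fixed list of 48 loci, all of which were found among the 33201 genes of the expression table. The list names family members but leaves out the receptor genes AFB4 and AFB5 and 7 ARF genes. None of those 7 reached 1 FPKM in at least 3 samples, so the share of ARFs tested does not stand for the whole family. RNA-Seq was performed on sorted cells of Arabidopsis Col-0 root tips, taken from 5-day-old seedlings with fluorescent marker transgenes. The 28 samples were biological replicates of 8 populations. The stem cell niche (SCN, n = 4) was collected as GFP-positive cells of AGL42:GFP, cortex endodermis initials (CEI, n = 3) of CYCD6:GFP, protophloem (Protophlo, n = 4) of CVP2:NLS:VENUS, epidermis/lateral root cap initials (Epi/LRC, n = 3) of FEZ:FEZ:GFP, columella stem cells (CSC, n = 3) of J2341:GFP, xylem stem cells (Xyl, n = 4) of TMO5:3xGFP and the quiescent center (QC, n = 3) of WOX5:GFP. The non-stem cells (NSC, n = 4) were the GFP-negative cells of AGL42:GFP, so that NSC and SCN came from the same line. Each population was therefore defined by where 1 promoter or enhancer trap was active, the FEZ line carried a FEZ protein fusion, and every sample had passed through cell wall digestion and sorting.

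Auxin brings a TIR1/AFB F-box protein and an Aux/IAA repressor together, and the repressor is then ubiquitinated by the SCF complex and degraded. Aux/IAAs bind ARFs and recruit TOPLESS co-repressors, so that their removal lets activating ARFs switch on auxin-responsive genes, which include many Aux/IAA genes themselves. In the root tip, this module is known for positioning the quiescent center, for vascular and lateral root formation, and for the balance between stem cells and differentiating columella.

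Values were FPKM (fragments scaled by transcript length in kilobases and by the mapped reads of the library), which are adjusted for length and can be compared between genes. The low values implied about 8130000 to 33100000 reads per sample, so that 1 read on a transcript of 1 kb was worth 0.0302 to 0.123 FPKM. Between 13643 and 18778 genes reached 1 FPKM in a sample. Markers of the sorted populations were checked first. AGL42, the marker of SCN and NSC, was at 4.73 to 31.9 FPKM in SCN and 1.05 to 2.60 FPKM in NSC. It was at 4.22 to 17.1 FPKM in CEI, 5.21 to 10.3 FPKM in Protophlo and 10.1 to 19.3 FPKM in QC. In Epi/LRC and Xyl it was at 0 to 0.0701 and 0 to 0.354 FPKM, below NSC, and in CSC at 0 to 5.22 FPKM. WOX5 was at 127 to 264 FPKM in the QC, TMO5 at 851 to 1340 FPKM in Xyl and FEZ at 72.3 to 262 FPKM in Epi/LRC, whereas FEZ also reached 55.9 to 109 FPKM in CSC. CYCD6;1 was at 1.48 to 22.7 FPKM in CEI and at 6.30 to 24.0 FPKM in CSC. CVP2 was at only 0 to 5.22 FPKM in Protophlo, below the 10.5 to 26.5 FPKM of Xyl, so the name Protophlo stands here for cells sorted with that marker. CASP1, an endodermis gene, was at 3040 FPKM in Protophlo 4 against 2.36 to 6.55 FPKM in the other 3 Protophlo samples, and at 999.8 FPKM in CEI 2 against 123 and 10.1 FPKM in CEI 1 and CEI 3. It was listed at 0 in all CSC samples and at 444 to 788 FPKM in NSC. The summed level of 14 further cell type markers was 230 to 656 FPKM in SCN, 159 to 1636 in CEI and 172 to 5228 in Protophlo. It was 181 to 433 in Epi/LRC, 52.1 to 195 in CSC, 38.9 to 239 in Xyl, 297 to 555 in QC and 1037 to 1589 in NSC. The 14 include root cap and epidermis genes (SMB, BRN1, BRN2 and WER), tissues that some sorted populations form. In Epi/LRC, WER and SMB had means of 100 and 85.5 FPKM, so the sums are not a measure of foreign cells alone. The part that these differences play in the auxin genes was not tested, and counts below are also given without the samples concerned. In sorted bulk samples, fewer cells that express a gene and less RNA per cell cannot be told apart. A value of 0 can be a failed estimate, since CUL1, the cullin of the SCF complex, was listed at 0 in CSC 2 and Xyl 1 and at 48.6 to 131 FPKM in the other samples.

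The degron, the short stretch by which an Aux/IAA is held by its receptor, has a core of glycine, tryptophan and a pair of prolines. It was found in the coding sequence of 23 of the 29 Aux/IAA genes (RefSeq, TAIR10.1) and was not found in IAA20, IAA30, IAA31, IAA32, IAA33 and IAA34. The sequences are shown for 4 repressors with strongly contrasting levels, with the core and the codon after it in capitals. They lie at chr1:1136938-1136970 (IAA17), chr5:9033812-9033844 (IAA28), chr5:26255104-26255136 (IAA9) and chr1:1241058-1241090 (IAA12), all on the plus strand and within coding exons.
IAA17: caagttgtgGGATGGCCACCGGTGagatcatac
IAA28: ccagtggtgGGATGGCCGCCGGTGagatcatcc
IAA9: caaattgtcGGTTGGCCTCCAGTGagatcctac
IAA12: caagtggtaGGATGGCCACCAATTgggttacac
The codon after the prolines encodes valine in IAA17, IAA28 and IAA9 but not in IAA12. It also differs from valine in IAA8, IAA10, IAA11, IAA13 and IAA27, which gives 6 of the 23.

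In Arabidopsis, microRNAs restrain several of these genes: miR160 is known to target ARF10, ARF16 and ARF17, miR167 to target ARF6 and ARF8, and miR393 to target the receptors. The mature sequences from RefSeq are given with the seed (bases 2 to 8) in capitals. They are shown because ARF8 and ARF16 had some of the widest contrasts below, and a link to the sites was not tested. The microRNAs themselves were not measured.
miR160: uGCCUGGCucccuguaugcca
miR167: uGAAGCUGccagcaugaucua
The sites follow 5′ to 3′ with the bases that pair in capitals, and G opposite U was counted as unpaired. They lie in coding sequence at chr1:29274189-29274209 (ARF17, plus strand), chr2:12115741-12115761 (ARF10, plus), chr4:14704141-14704161 (ARF16, minus), chr5:14633841-14633861 (ARF8, plus) and chr1:10686478-10686498 (ARF6, minus).
ARF17: TGGCATgCAGGGAGCCAGGCA
ARF10: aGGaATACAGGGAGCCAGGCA
ARF16: gGGttTACAGGGAGCCAGGCA
ARF8: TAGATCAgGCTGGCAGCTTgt
ARF6: gAGATCAgGCTGGCAGCTTgt
The 3 targets of miR160 differ from full pairing at 1 position in ARF17, 2 in ARF10 and 3 in ARF16, and those of miR167 at 3 positions in ARF8 and 4 in ARF6. The miR393 site was likewise found in all 4 receptors, with 2 unpaired positions in AFB2 and AFB3, 3 in TIR1 and 4 in AFB1.

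ARFs bind the letters TGTCTC and TGTCGG. In the 250 bases before the annotated start, TGTCTC was present on either strand in 9 of the 29 Aux/IAA genes (31.0%), in 1 of the 15 ARF genes and in none of the 4 receptor genes, against 10.9% of 27443 protein-coding genes. TGTCGG was present in 6 of the 29 Aux/IAA genes (20.7%), in 2 of the 15 ARF genes (13.3%) and in no receptor gene, against 4.16% of all genes. Of the 6 Aux/IAA genes without a degron core, 4 had TGTCTC and 0 had TGTCGG. The 4 were IAA20, IAA30, IAA32 and IAA34, whereas IAA31 and IAA33 had neither. A link between these letters and the levels below was not tested. The upstream sequence of IAA20, which was high in CSC, is shown with TGTCTC in capitals. It lies at chr2:19307464-19307713 on the plus strand. A match describes letters only and no binding was measured.
IAA20: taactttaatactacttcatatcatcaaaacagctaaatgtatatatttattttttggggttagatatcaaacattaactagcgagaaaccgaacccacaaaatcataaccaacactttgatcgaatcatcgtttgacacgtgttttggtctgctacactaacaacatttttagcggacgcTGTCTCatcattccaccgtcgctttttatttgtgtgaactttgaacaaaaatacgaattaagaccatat

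Most of the listed genes were expressed in the root tip populations. Of the 48, 46 reached 1 FPKM in at least 3 samples and were tested. IAA15, listed at 0 in 24 samples with a highest value of 5.08 FPKM in CSC 1, and IAA32, with a highest value of 1.78 FPKM, were not. IAA34, ARF3, ARF11 and IAA27 passed through only 3, 5, 4 and 6 samples. Together the 48 genes took 0.133% to 0.379% of all FPKM in a sample. Aux/IAA transcripts outweighed ARF transcripts in every sample, with sums of 749 to 2709 FPKM and 56.5 to 518 FPKM. IAA17 (AXR3), a repressor known from dominant mutants with altered root growth, was the most abundant Aux/IAA in 18 of the 28 samples, including all SCN, CEI, Protophlo and NSC samples. IAA9 led in all 4 Xyl samples and in 1 CSC sample, and IAA33 led in all 3 Epi/LRC samples, 1 CSC sample and 1 QC sample. The highest mean level of a gene was in CSC for 15 of the 46 genes, in Xyl for 11, in Protophlo for 7, in NSC for 6, in QC for 5 and in Epi/LRC for 2, and in SCN or CEI for none. Among all genes tested, CSC was highest for 24.1% and Xyl for 15.0%, against 32.6% and 23.9% of the auxin signalling genes. The highest mean exceeded the second highest by more than the SD of either population for only 16 of the 46 genes (34.8%). For the rest, the order of the top populations lay within the spread. The share of all genes with such a gap was not determined.

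**Figure D1:**
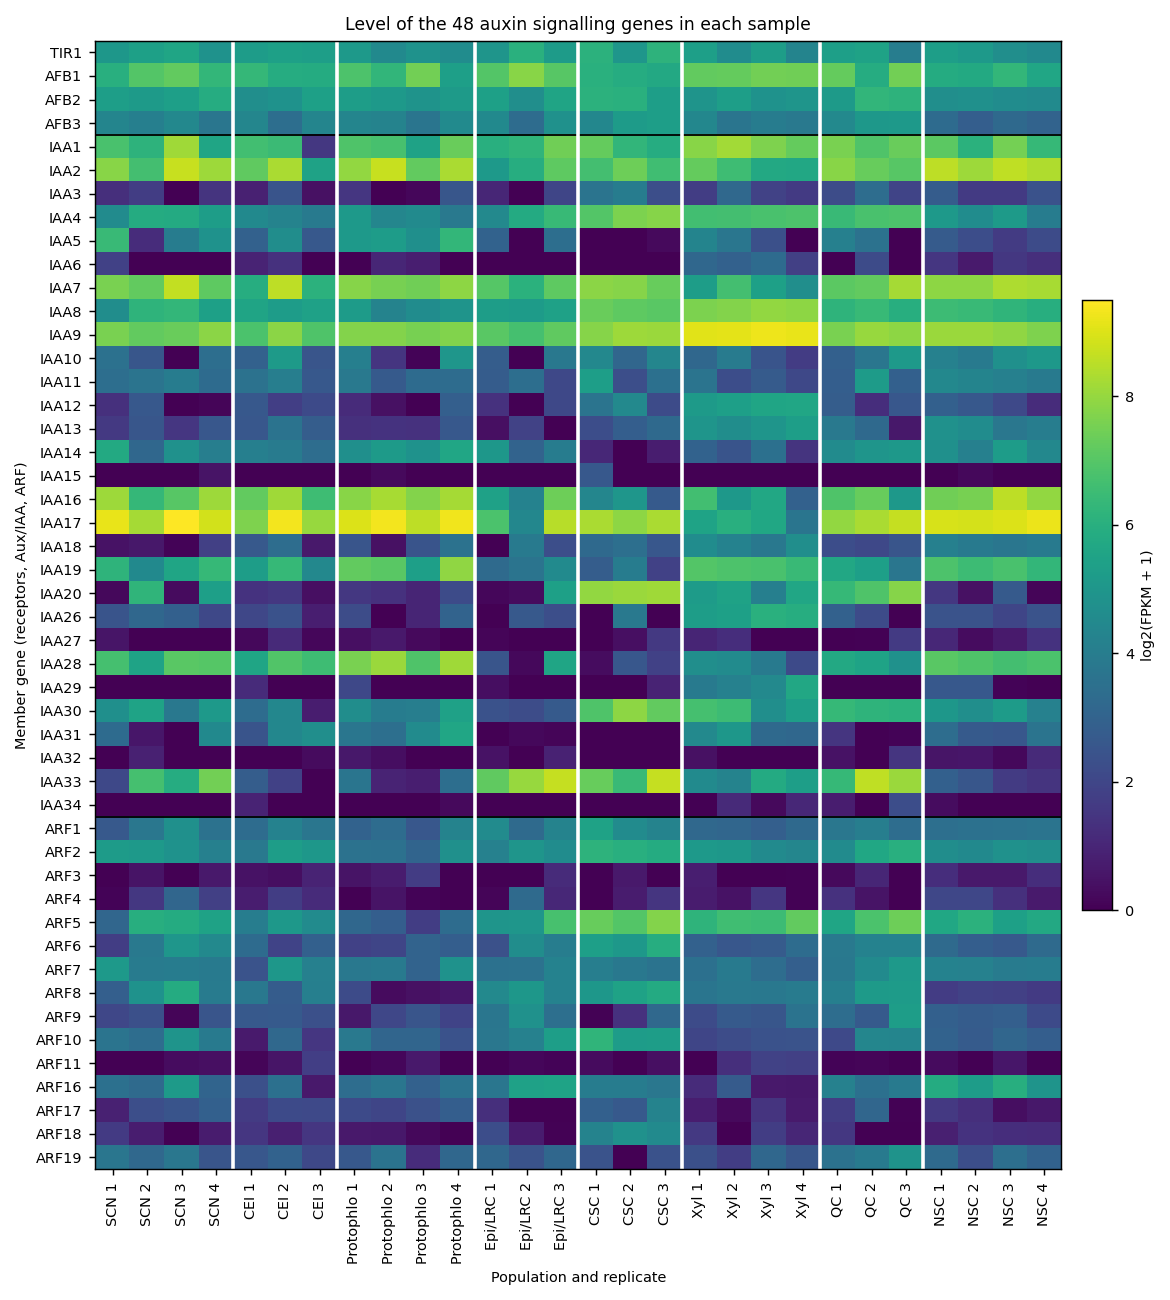
Level of the 48 auxin signalling genes (rows, by family) in each of the 28 samples (columns, by population) as log2(FPKM + 1). IAA17 was the leading Aux/IAA in 18 samples, and IAA20, IAA30 and IAA33 were high in CSC and QC samples.

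To ask which of these genes mark stem cells, each population was compared to NSC with limma on log2(FPKM + 1), across all 22694 genes tested. A gene was called enriched (higher) or depleted (lower) when it changed by more than 2-fold with a p-value under 0.06 after Benjamini-Hochberg adjustment, and fold changes are given on that log2 scale with their SE. The CSC and Xyl samples held the most calls. In CSC, 14 of 46 genes were enriched and 9 depleted (30.4% and 19.6%), against 22.6% and 18.3% of all genes tested. In Xyl, 12 were enriched and 8 depleted (26.1% and 17.4%), against 20.0% and 23.5% of all genes. The 12, and the counts over all populations below, include ARF11, which was tested only because of its level in Xyl. In Epi/LRC, 5 were enriched and 9 depleted (10.9% and 19.6%), against 12.5% and 16.6% of all genes. The QC had 6 enriched and 3 depleted genes, against 9.31% and 9.49% of all genes, and the SCN 3 and 3, against 5.52% and 8.89%. Protophlo had 2 enriched and 4 depleted genes, against 3.51% and 10.5% of all genes, and CEI 1 enriched and 2 depleted, against 5.37% and 5.04%. The median log2 fold change of the 46 genes lay between -0.54 (Epi/LRC) and 0.13 (Xyl), with medians over all genes of -0.05 and -0.20.

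The calls of the 3 families are given side by side, and a difference between them was not tested. Over all pairs of a gene and a population, 11.3% were enriched and 13.2% depleted among all genes tested. The receptors gave 9 calls in 28 pairs, all enriched (32.1%). The Aux/IAAs gave 19 enriched and 32 depleted calls in 189 pairs (10.1% and 16.9%), and the ARFs 15 enriched and 6 depleted in 105 pairs (14.3% and 5.71%). Over the 7 populations, 23 of the 46 genes were enriched at least once (50.0%) and 16 were depleted at least once (34.8%), against 33.7% and 32.4% of all genes tested. Of the 46, 4 were called both ways (ARF5, IAA6, IAA8 and IAA30) and 11 were never called (TIR1, ARF3, ARF4, ARF7, ARF9, ARF19, IAA1, IAA3, IAA10, IAA27 and IAA34). The shares of all genes called both ways or never called were not determined, so these counts are a description only. All 7 comparisons share the NSC samples. Leaving out CEI 2 gave 2 enriched and 7 depleted genes in CEI, and leaving out Protophlo 4 gave 0 enriched and 6 depleted genes in Protophlo. Size factors in place of FPKM alone moved the median of all genes by -0.30 in CSC, -0.22 in QC, -0.14 in Epi/LRC, -0.11 in SCN and Xyl and 0.10 in Protophlo. With them the split of enriched and depleted genes was 10 and 10 in CSC, 3 and 13 in Epi/LRC, and 5 and 4 in QC. Here and below, the shares of all genes called were not determined with size factors, with samples left out or under other alternatives. Such counts show how the calls moved and are not set against all genes.

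**Figure D2:**
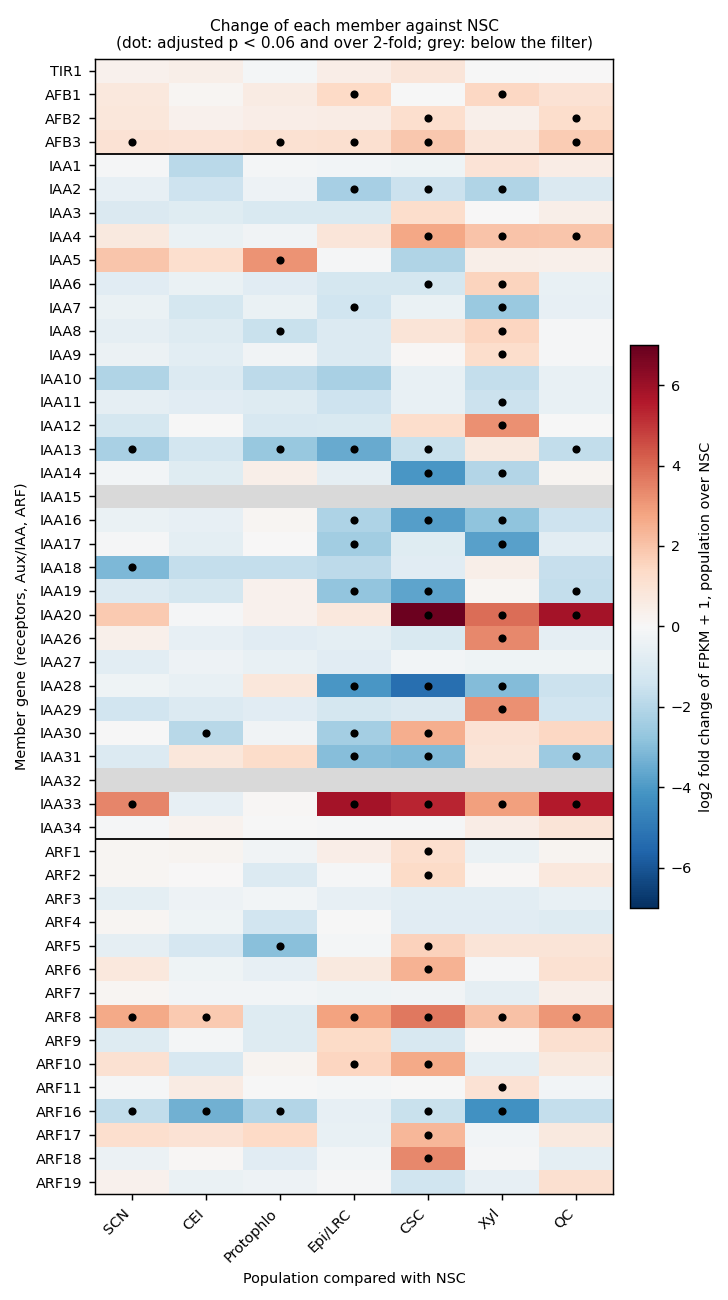
Log2 fold change of each gene (rows) in each of the 7 stem cell populations compared to NSC (columns), on the log2(FPKM + 1) scale, with a dot where a gene was called and grey for IAA15 and IAA32, which were not tested. CSC had 14 enriched and 9 depleted genes, and IAA33 was enriched in 5 populations.

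Of the 4 receptor genes, 3 were enriched in at least 1 population and none was depleted, against 33.7% and 32.4% of all genes. AFB3 (AT1G12820) was the receptor with the broadest enrichment. It was at 20.3, 36.4 and 38.7 FPKM in CSC and 21.4, 32.7 and 34.4 FPKM in QC, against 9.12, 6.21, 8.49 and 7.08 FPKM in NSC, and every CSC and QC sample lay above every NSC sample. The log2 fold change was 1.87 ± 0.37 (adjusted p = 0.000342) in CSC and 1.79 ± 0.37 (adjusted p = 0.00168) in QC. AFB3 was also called in SCN, Protophlo and Epi/LRC at log2 fold changes of 1.03, 1.09 and 1.11, just above the 2-fold limit. The SCN call was lost without NSC 1, NSC 2, NSC 3, NSC 4, SCN 1, SCN 2 or SCN 3 (log2 fold change 0.93 to 1.10, adjusted p 0.0625 to 0.117), the Protophlo call without NSC 2, NSC 4, Protophlo 1, Protophlo 2 or Protophlo 4 (log2 fold change 0.98 to 1.08, adjusted p 0.0718 to 0.0988) and the Epi/LRC call without Epi/LRC 1, Epi/LRC 3 or NSC 2 (log2 fold change 0.81 to 1.02, adjusted p 0.0663 to 0.141). With size factors, the calls in SCN (0.85, adjusted p = 0.0876) and Epi/LRC (0.88, adjusted p = 0.0674) were lost as well.

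AFB1 (AT4G03190), known for rapid auxin responses of the root, had the highest mean of the receptors. In Xyl it was at 147, 152, 179 and 173 FPKM and in Epi/LRC at 124, 226 and 129 FPKM, against 56.7, 54.1, 77.7 and 48.4 FPKM in NSC. Both populations lay wholly above NSC. Compared to NSC, the log2 fold change was 1.46 ± 0.38 (adjusted p = 0.0029) in Xyl and 1.38 ± 0.41 (adjusted p = 0.0136) in Epi/LRC, the second of which was lost without Epi/LRC 2 (log2 fold change 1.10, adjusted p = 0.0962). In CSC, by contrast, AFB1 was at 64.1, 57.8 and 52.9 FPKM, within the range of NSC. AFB2 was at 67, 64.6 and 39.3 FPKM in CSC and 35.4, 76.1 and 69.6 FPKM in QC, against 24.7, 26.4, 23.6 and 22.4 FPKM in NSC, with log2 fold changes of 1.16 ± 0.30 (adjusted p = 0.00374) and 1.21 ± 0.30 (adjusted p = 0.00775). With size factors, neither AFB2 change was over 2-fold (0.60 and 0.84). TIR1, the founding receptor, was called in no population and ranged between 15.2 and 69.2 FPKM over all samples. AFB1 and AFB3 overlap genes on the opposite strand by 423 and 638 bases, and since strand-specific counting is not stated, reads of the overlap cannot be assigned.

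Among the Aux/IAAs, the steepest enrichment was found in genes without a degron core. IAA20 (AT2G46990) was at 251, 269 and 284 FPKM in CSC, 82.2, 116 and 215 FPKM in QC and 36, 43.7, 16 and 48.7 FPKM in Xyl, against 1.91, 0.354, 5.5 and 0.0858 FPKM in NSC. All samples of these 3 populations lay above all NSC samples. Log2 fold changes were 6.87 ± 1.17 (adjusted p = 8.27e-05) in CSC, 5.80 ± 1.17 (adjusted p = 0.00138) in QC and 3.90 ± 1.09 (adjusted p = 0.00493) in Xyl. CSC and QC did not differ beyond their spread (log2 difference 1.07 ± 1.26, adjusted p = 0.665). In CEI and Protophlo, IAA20 was at 0.294 to 3.49 FPKM, within the NSC range. The SCN and Epi/LRC samples were split: SCN 2 and SCN 4 were at 72.8 and 39.7 FPKM and SCN 1 and SCN 3 at 0.161 and 0.202 FPKM, while Epi/LRC 3 was at 41.6 FPKM and the other Epi/LRC samples at 0.115 and 0.208 FPKM. IAA20 was called in neither.

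IAA33 (AT5G57420), a non-canonical Aux/IAA known to act in the distal root stem cell niche, had another pattern. It was at 146, 264 and 405 FPKM in Epi/LRC, 81.7, 381 and 265 FPKM in QC and 157, 85.4 and 406 FPKM in CSC, against 6.54, 4.81, 2.17 and 1.69 FPKM in NSC. These populations lay wholly above NSC, with log2 fold changes of 5.84 ± 0.96 (adjusted p = 0.000112), 5.53 ± 0.96 (adjusted p = 0.000295) and 5.33 ± 0.96 (adjusted p = 0.000135). The enriched type with the lowest mean was Xyl, at 22.1, 18.2, 54.8 and 39.5 FPKM and a log2 fold change of 2.85 ± 0.89 (adjusted p = 0.0106). The log2 difference between Epi/LRC and Xyl was 2.99 ± 0.96 (adjusted p = 0.0486), whereas Epi/LRC did not differ beyond the spread from QC (adjusted p = 0.950) or CSC (adjusted p = 0.850). In SCN it was at 3.167, 102.6, 57.98 and 178.7 FPKM, of which SCN 1 overlapped NSC, with a log2 fold change of 3.40 ± 0.89 (adjusted p = 0.0115). CEI, at 5.91, 2.59 and 0 FPKM, and Protophlo, at 11.9, 0.94, 0.747 and 9.79 FPKM, were not called.

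IAA30 was called in both directions. It was at 116, 234 and 147 FPKM in CSC and 4.24, 3.57 and 5.41 FPKM in Epi/LRC, against 31.8, 25.1, 36.6 and 17.3 FPKM in NSC. Every CSC sample was above and every Epi/LRC sample below all NSC samples. The log2 fold change was 2.53 ± 0.60 (adjusted p = 0.00183) in CSC and -2.37 ± 0.60 (adjusted p = 0.0049) in Epi/LRC. The difference between both types, which follows from these opposite calls, was 4.90 ± 0.65. The CEI samples, at 9.22, 20.1 and 0.692 FPKM, overlapped NSC and were called at -1.95 ± 0.60 (adjusted p = 0.0406), a call that was lost without CEI 1, CEI 3, NSC 1, NSC 2 or NSC 3 (log2 fold change -2.21 to -0.91, adjusted p 0.0704 to 0.494) and with only the groups compared (adjusted p = 0.0939).

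IAA31 ran the other way from IAA20 and IAA33 in CSC and QC, and from IAA33 in Epi/LRC. It was listed at 0, 0 and 0 FPKM in CSC, 0, 0.149 and 0.0941 FPKM in Epi/LRC and 1.8, 0 and 0.0782 FPKM in QC, against 9.4, 5.5, 4.96 and 11.5 FPKM in NSC. No sample of these types reached the lowest NSC sample. It was called depleted in all 3 (adjusted p = 0.0041 in CSC, 0.00832 in Epi/LRC and 0.0312 in QC), and the QC call was lost without NSC 1, NSC 4, QC 2 or QC 3 (log2 fold change -2.44 to -2.28, adjusted p 0.0658 to 0.11) and with the replicate number as a block (adjusted p = 0.0627). Protophlo had the highest mean, at 12.2, 10.1, 23.3 and 48.6 FPKM. In Xyl, where IAA20 and IAA33 were enriched, IAA31 was at 7.96 to 31.5 FPKM, overlapping NSC, and was not called compared to NSC. IAA34 had a highest value of 3.76 FPKM and was called in none of the 7 comparisons.

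**Figure D3:**
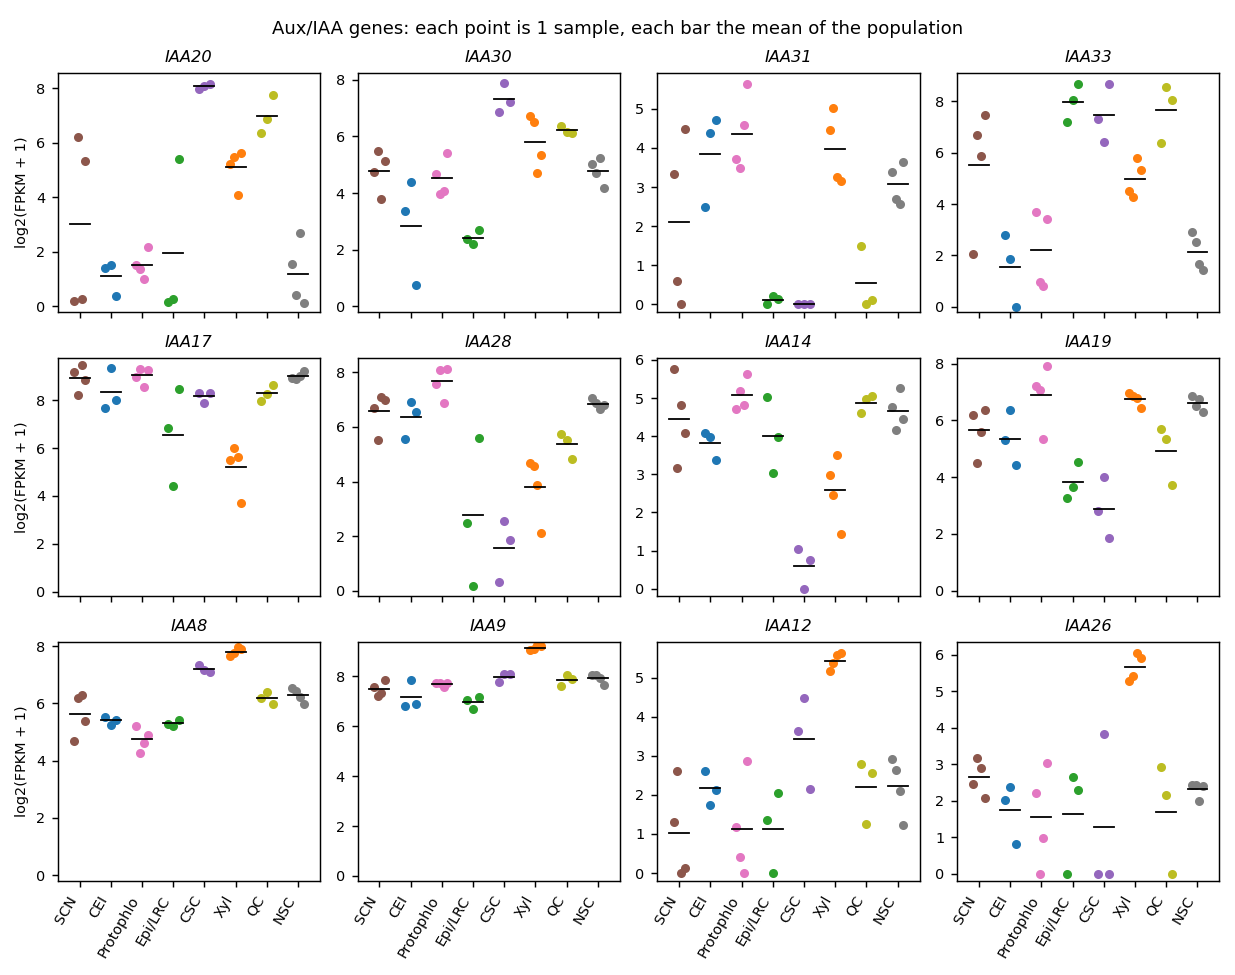
Level of 12 Aux/IAA genes as log2(FPKM + 1) in every sample (points) of the 8 populations, with the mean of each population as a bar and a separate scale for each gene. IAA20 reached 251 to 284 FPKM in CSC and 0.0858 to 5.50 FPKM in NSC, whereas IAA28 was at 0.255 to 4.91 FPKM in CSC and 99.5 to 134 FPKM in NSC.

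The share of Aux/IAA transcripts that came from genes without a degron core followed from these levels. It was 26.9, 29 and 38.9% in CSC, 19.2, 35.8 and 24.8% in Epi/LRC and 14.6, 26.9 and 26.2% in QC, against 2.24, 1.85, 1.98 and 1.46% in NSC. Xyl was intermediate at 9.6, 9.47, 5.85 and 8.3%. In CEI it was 1.89% to 3.24% and in Protophlo 1.14% to 3.84%. SCN again fell into 2 pairs of samples, with 17.0% and 13.3% in SCN 2 and SCN 4 and 1.91% and 2.79% in SCN 1 and SCN 3. The shares are given as a description and were not tested. The summed Aux/IAA level was 1948 to 2149 FPKM in CSC, 1704 to 2111 FPKM in QC and 1960 to 2493 FPKM in NSC, so that these ranges overlapped. In Epi/LRC and Xyl it was 749 to 1826 and 1645 to 1946 FPKM, below every NSC sample, so the shares there were of a smaller sum.

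**Figure D4:**
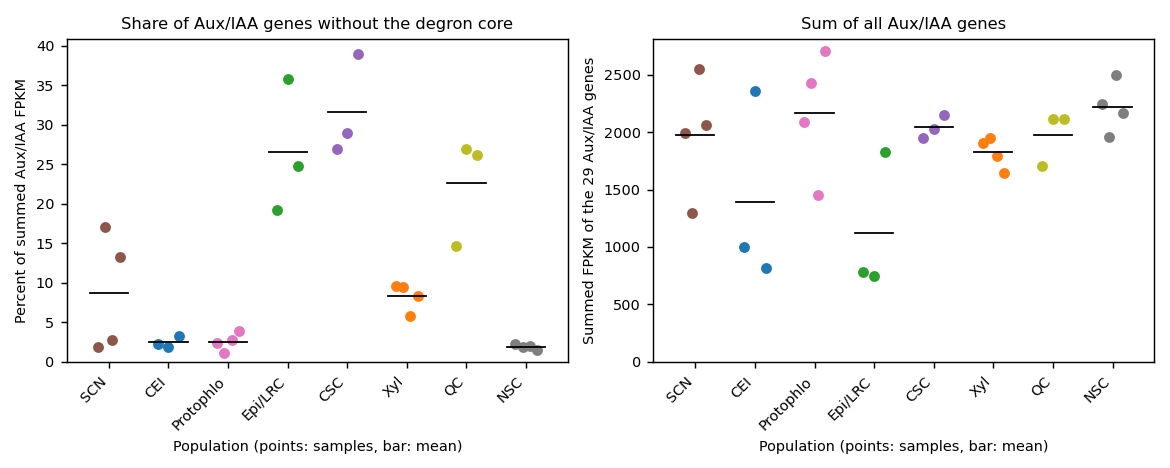
Share of the summed Aux/IAA FPKM from the 6 genes without a degron core, in percent, and the summed Aux/IAA FPKM, in every sample (points) by population. CSC samples held 26.9% to 38.9% and NSC samples 1.46% to 2.24% of their Aux/IAA FPKM in such genes.

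Several abundant repressors with a degron core were depleted in root cap, columella and xylem populations. IAA28 (AT5G25890), known to act in the specification of lateral root founder cells, showed the steepest change. It was at 0.255, 4.91 and 2.62 FPKM in CSC, 4.66, 0.141 and 47.6 FPKM in Epi/LRC and 24.6, 22.8, 13.8 and 3.36 FPKM in Xyl, against 134, 118, 99.5 and 110.1 FPKM in NSC. No sample of the 3 populations reached the NSC range. Depletion amounted to log2 fold changes of -5.27 ± 0.79 (adjusted p = 1.87e-05) in CSC, -4.09 ± 0.79 (adjusted p = 0.00057) in Epi/LRC and -3.04 ± 0.73 (adjusted p = 0.00158) in Xyl. In Protophlo it stood at 190.1, 269, 116 and 279.6 FPKM, overlapping NSC.

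IAA17 (AT1G04250) was at 44.1, 62.4, 49 and 12.1 FPKM in Xyl and 112, 20.2 and 355 FPKM in Epi/LRC, against 490.3, 472, 512 and 592 FPKM in NSC. The Xyl samples were the lowest of any type apart from Epi/LRC 2, and neither population overlapped NSC. The log2 fold change was -3.80 ± 0.57 (adjusted p = 1.15e-05) in Xyl and -2.44 ± 0.61 (adjusted p = 0.00441) in Epi/LRC, and the Epi/LRC call was lost without Epi/LRC 2 (log2 fold change -1.36, adjusted p = 0.0798). Its close relative IAA7 (AXR2) was depleted in Xyl, at 38.1, 99.4, 41.4 and 24.8 FPKM against 238, 236, 325 and 306 FPKM in NSC (log2 fold change -2.59 ± 0.47, adjusted p = 9.9e-05). IAA7 was also called in Epi/LRC at -1.37 ± 0.51 (adjusted p = 0.0448), and lost without Epi/LRC 1, Epi/LRC 2, NSC 1, NSC 2, NSC 3 or NSC 4 (log2 fold change -1.49 to -1.03, adjusted p 0.06 to 0.221) and without a filter (adjusted p = 0.0648).

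IAA14 (SOLITARY-ROOT), the repressor whose stabilized form blocks lateral root initiation, was nearly absent from CSC. It was at 1.07, 0 and 0.685 FPKM in CSC and 6.86, 4.48, 10.4 and 1.7 FPKM in Xyl, against 26.1, 16.8, 37.2 and 20.8 FPKM in NSC. Both lay below all NSC samples, with log2 fold changes of -4.05 ± 0.54 (adjusted p = 4.31e-06) and -2.06 ± 0.50 (adjusted p = 0.0017). The QC and Protophlo samples, at 23.2, 30.2 and 32.2 FPKM and 25.4, 35.3, 27.4 and 48.1 FPKM, overlapped NSC.

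IAA19 (MSG2), known from tropic growth of the hypocotyl, was at 6.02, 15.1 and 2.6 FPKM in CSC and 8.69, 11.7 and 22.3 FPKM in Epi/LRC, against 114, 90.8, 107 and 76.9 FPKM in NSC. The groups did not overlap and the log2 fold changes were -3.72 ± 0.59 (adjusted p = 3.43e-05) and -2.78 ± 0.59 (adjusted p = 0.00121). In QC it was called at -1.68 ± 0.59 (adjusted p = 0.0474), and lost without NSC 1, NSC 2, NSC 3, NSC 4, QC 2 or QC 3 (log2 fold change -1.90 to -1.08, adjusted p 0.0658 to 0.277), and also without a filter, with a pseudocount of 0.1 and with the replicate block (adjusted p 0.0654 to 0.0686). IAA16 was depleted in CSC, at 19.5, 30.9 and 5.4 FPKM, and in Xyl, at 97.3, 32.7, 50.4 and 6.69 FPKM, against 175, 184, 372 and 248 FPKM in NSC (log2 fold change -3.86 ± 0.75 (adjusted p = 0.000273) in CSC and -2.79 ± 0.69 (adjusted p = 0.00192) in Xyl). Its Epi/LRC call of -2.18 ± 0.75 (adjusted p = 0.0304) was lost without Epi/LRC 1, Epi/LRC 2, NSC 3 or NSC 4 (log2 fold change -2.15 to -1.44, adjusted p 0.0617 to 0.226). IAA2 was depleted in Epi/LRC at -2.35 ± 0.56 (adjusted p = 0.00295) and in Xyl at -2.09 ± 0.52 (adjusted p = 0.00191), with 33.6 to 140 FPKM and 51.3 to 149.8 FPKM against 274 to 380 FPKM in NSC. The IAA2 call in CSC, at -1.52 ± 0.56 (adjusted p = 0.0318), was lost without CSC 1, CSC 3, NSC 1 or NSC 3 (log2 fold change -1.47 to -1.37, adjusted p 0.0618 to 0.101).

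IAA13, a close paralog of the embryonic repressor IAA12, was depleted in 5 populations. It was at 0.314, 2.63 and 0 FPKM in Epi/LRC, 1.47, 1.59, 1.55 and 5.09 FPKM in Protophlo and 1.95, 4.83, 1.83 and 5.02 FPKM in SCN, against 26.8, 23.4, 12.5 and 15.4 FPKM in NSC. These 3 populations lay below all NSC samples, with log2 fold changes of -3.55 ± 0.61 (adjusted p = 0.000184), -2.64 ± 0.56 (adjusted p = 0.00259) and -2.25 ± 0.56 (adjusted p = 0.00873). The call in CSC, at -1.53 ± 0.61 (adjusted p = 0.0465), was lost without CSC 1, CSC 2, NSC 1, NSC 2 or NSC 4 (log2 fold change -1.62 to -1.27, adjusted p 0.0629 to 0.159), with a pseudocount of 0.1 (adjusted p = 0.157) and with the replicate block (adjusted p = 0.0629). The call in QC, at -1.73 ± 0.61 (adjusted p = 0.0492), was lost without NSC 1, NSC 2, NSC 4 or QC 3 (log2 fold change -1.82 to -0.75, adjusted p 0.0793 to 0.405), and also with a pseudocount of 0.1, with only the groups compared and with the replicate block (adjusted p 0.0679 to 0.119). IAA13 overlaps an antisense gene by 1176 bases. IAA18, known for its role in embryonic root formation and lateral rooting, was depleted in SCN, at 0.38, 0.527, 0.0683 and 2.48 FPKM against 16.6, 14, 12.1 and 13.6 FPKM in NSC (log2 fold change -3.16 ± 0.69, adjusted p = 0.00299). IAA11 was depleted in Xyl at -1.53 ± 0.56 (adjusted p = 0.0295), a call that was lost without NSC 1, Xyl 2 or Xyl 4 (log2 fold change -1.45 to -1.33, adjusted p 0.066 to 0.0917).

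The Xyl population had its own set of enriched repressors. IAA12 (BODENLOS), the partner of ARF5 in the embryo, was at 34.8, 40.4, 46.6 and 48.4 FPKM in Xyl, against 6.6, 5.19, 3.3 and 1.33 FPKM in NSC. IAA26 was at 38.1, 41.5, 65.1 and 59.2 FPKM in Xyl, against 4.41, 4.43, 3.01 and 4.34 FPKM in NSC. IAA29, a growth-related Aux/IAA of the shoot, was at 13.6, 17.1, 21.1 and 50.7 FPKM in Xyl, against 5.07, 5.17, 0.0633 and 0 FPKM in NSC. For each of these 3 genes, all Xyl samples lay above all other samples of the series. The log2 fold changes compared to NSC were 3.21 ± 0.66 (adjusted p = 0.000363), 3.34 ± 0.78 (adjusted p = 0.00117) and 3.22 ± 0.56 (adjusted p = 6.78e-05).

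The paralogs IAA8 and IAA9 were abundant in Xyl. IAA9 was at 532, 545, 605 and 588 FPKM in Xyl, against 266, 265, 242 and 201 FPKM in NSC (log2 fold change 1.22 ± 0.24, adjusted p = 0.00024), and the highest sample of another population was at 276 FPKM. IAA8 was at 199, 213, 247 and 237 FPKM in Xyl and 36.4, 18.2, 23.3 and 28.9 FPKM in Protophlo, against 90.8, 85.4, 73.5 and 61.6 FPKM in NSC. Xyl was wholly above and Protophlo wholly below NSC. This gave log2 fold changes of 1.52 ± 0.29 (adjusted p = 0.000155) in Xyl and -1.54 ± 0.29 (adjusted p = 0.000765) in Protophlo. The difference between these types, which follows from these opposite calls, was 3.06 ± 0.29. IAA6 was at 8.07, 6.64, 8.91 and 2.52 FPKM in Xyl, against 1.87, 0.598, 1.91 and 1.43 FPKM in NSC (log2 fold change 1.56 ± 0.48, adjusted p = 0.0108). With a pseudocount of 0.1 it was no longer called (log2 fold change 2.07, adjusted p = 0.173). IAA6 was listed at 0 in all CSC samples. Its depletion there, at an adjusted p of 0.0578, was lost in 15 of the 28 fits with a sample left out (adjusted p 0.0605 to 0.114) and without a filter (adjusted p = 0.0704).

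IAA4, known as an early auxin-responsive gene, was enriched in 3 types. It was at 123, 196 and 219 FPKM in CSC, 96.5, 99.5, 107 and 113 FPKM in Xyl and 84.7, 107 and 113 FPKM in QC, against 33.9, 23.4, 35.1 and 14.7 FPKM in NSC. There was no overlap with NSC, and the log2 fold change was 2.73 ± 0.40 (adjusted p = 1.49e-05) in CSC, 1.99 ± 0.37 (adjusted p = 0.000141) in Xyl and 1.95 ± 0.40 (adjusted p = 0.00167) in QC. CSC did not differ beyond the spread from Xyl (adjusted p = 0.276) or QC (adjusted p = 0.297). IAA5 was the Aux/IAA enriched in Protophlo, at 33.1, 37.3, 25.2 and 76.9 FPKM against 5.64, 3.77, 2.11 and 3.56 FPKM in NSC (log2 fold change 3.14 ± 1.00, adjusted p = 0.0371). This call was lost without NSC 2, NSC 3, NSC 4, Protophlo 2 or Protophlo 4 (log2 fold change 2.82 to 3.16, adjusted p 0.0707 to 0.0956) and with a pseudocount of 0.1 (adjusted p = 0.177). In CSC, IAA5 was at 0, 0 and 0.188 FPKM. Of the other Aux/IAAs, IAA1 (1.89 to 286 FPKM), IAA3 (0 to 15.0 FPKM), IAA10 (0 to 35.2 FPKM) and IAA27 (0 to 2.05 FPKM) were called in no population compared to NSC. IAA3 (SHY2), known for its part in root meristem size, and IAA10 overlap antisense genes by 640 and 619 bases.

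Of the activating ARFs, ARF8 (AT5G37020) was called enriched in 6 of the 7 populations, all but Protophlo. It was at 31.9, 44 and 54.5 FPKM in CSC, 16.2, 35.5 and 35.8 FPKM in QC, 6.28, 27.6, 56.1 and 14.6 FPKM in SCN and 21, 31.7 and 17.7 FPKM in Epi/LRC, against 2.22, 2.63, 2.49 and 2.09 FPKM in NSC. CEI was at 13.1, 5.79 and 16.2 FPKM and Xyl at 11.8, 13.4, 13 and 14.4 FPKM. All samples of these 6 populations were above all NSC samples, and NSC varied little. In order of size, the log2 fold change was 3.70 ± 0.54 (adjusted p = 1.26e-05) in CSC, 3.09 ± 0.54 (adjusted p = 0.00032) in QC, 2.83 ± 0.54 (adjusted p = 0.000476) in Epi/LRC, 2.63 ± 0.50 (adjusted p = 0.000828) in SCN, 2.07 ± 0.50 (adjusted p = 0.00149) in Xyl and 1.81 ± 0.54 (adjusted p = 0.0329) in CEI. CSC exceeded Xyl by 1.62 ± 0.54 (adjusted p = 0.0479), but CSC and QC did not differ beyond their spread (0.61 ± 0.57, adjusted p = 0.568). The CEI call was lost without CEI 1, CEI 3, NSC 1 or NSC 4 (log2 fold change 1.54 to 1.80, adjusted p 0.0659 to 0.226) and with a pseudocount of 0.1 (adjusted p = 0.0643). Protophlo was at 3.49, 0.22, 0.34 and 0.493 FPKM, of which only Protophlo 1 reached the NSC level.

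ARF6, the close relative of ARF8 that shares the miR167 site shown above, was called only in CSC among the 7 populations. It was at 39.9, 32.1 and 59.4 FPKM in CSC, against 8.68, 6.18, 5.28 and 8.68 FPKM in NSC, with a log2 fold change of 2.43 ± 0.59 (adjusted p = 0.00223). The QC samples, at 13.5, 17.5 and 17.3 FPKM, were also above NSC but were not called (1.08 ± 0.59, adjusted p = 0.216).

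ARF5 (MONOPTEROS, AT1G19850), required for embryonic root formation, had the highest mean of the ARFs. It was at 154, 123 and 213 FPKM in CSC and 8.04, 6.16, 2.28 and 9.31 FPKM in Protophlo, against 49.2, 67.4, 40.9 and 52.6 FPKM in NSC. CSC was wholly above and Protophlo wholly below NSC. The log2 fold change was -2.94 ± 0.52 (adjusted p = 0.000447) in Protophlo and 1.60 ± 0.57 (adjusted p = 0.0259) in CSC. The difference of CSC from Protophlo, which follows from these opposite calls, was 4.55 ± 0.57. The CSC call was lost without CSC 3 (log2 fold change 1.40, adjusted p = 0.0995) and with size factors (log2 fold change 1.03, adjusted p = 0.139). ARF7 and ARF19, which together drive lateral root formation, were called in no population and ranged between 4.38 and 34.4 FPKM and between 0 and 28.1 FPKM over all samples.

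Of the 10 ARFs classed as repressors, 5 were enriched and 1 was depleted in CSC (50% and 10%), against 22.6% and 18.3% of all genes. Of the 5 activating ARFs, 3 were enriched and 0 depleted there (60% and 0%), so enrichment in CSC was not particular to the repressors. ARF18 (AT3G61830) was at 18.2, 26.8 and 22.5 FPKM in CSC, against 0.807, 1.62, 1.37 and 1.31 FPKM in NSC, and the highest sample outside CSC was at 3.69 FPKM. Its log2 fold change was 3.36 ± 0.52 (adjusted p = 2.39e-05), and CSC exceeded QC by 4.02 ± 0.55 (adjusted p = 2.72e-05). ARF1 (log2 fold change 1.20 ± 0.45, adjusted p = 0.0362) and ARF2 (1.33 ± 0.41, adjusted p = 0.0117) were enriched in CSC as well. With size factors these became 0.65 and 0.76 and were not called, and ARF1 was also lost without CSC 1, NSC 1 or NSC 2 (log2 fold change 0.85 to 1.19, adjusted p 0.0629 to 0.194). ARF11 reached 1 FPKM only in Xyl 2, Xyl 3, Xyl 4 and CEI 3, so that it was tested only because of its level in Xyl. It was called enriched there, with 0, 1.45, 2.67 and 2.49 FPKM against 0.215, 0.0233, 0.494 and 0.0338 FPKM in NSC. That call (1.01 ± 0.35, adjusted p = 0.0201) was lost without NSC 2, NSC 4, Xyl 2, Xyl 3 or Xyl 4 (log2 fold change 0.80 to 0.99, adjusted p 0.0401 to 0.086), with size factors (log2 fold change 0.95) and with a pseudocount of 0.1 (adjusted p = 0.0858). ARF3, ARF4 and ARF9 were called in no population.

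The 3 ARFs with a miR160 site did not share a pattern. ARF10 was at 73.5, 37.5 and 37.7 FPKM in CSC, against 6.85, 5.66, 7.68 and 6.24 FPKM in NSC, and ARF17 was at 6.57, 5.21 and 18.2 FPKM in CSC, against 1.97, 1.43, 0.293 and 0.519 FPKM in NSC. Both were wholly above NSC, with log2 fold changes of 2.67 ± 0.57 (adjusted p = 0.000729) and 2.32 ± 0.61 (adjusted p = 0.00406). ARF10 was also called in Epi/LRC at 1.50 ± 0.57 (adjusted p = 0.0513), and lost without Epi/LRC 2, Epi/LRC 3, NSC 1, NSC 2, NSC 3 or NSC 4 (log2 fold change 1.05 to 1.63, adjusted p 0.0708 to 0.225). With all samples kept, it was also lost with a pseudocount of 0.1, without a filter, with size factors, with the replicate block and at an adjusted p-value under 0.05 (adjusted p 0.0513 to 0.0942). ARF16, which acts with ARF10 in columella differentiation, was instead highest in NSC. It was at 1.23, 5.58, 0.577 and 0.521 FPKM in Xyl, 4.01, 10.3 and 0.554 FPKM in CEI and 9.53, 12.3, 6.69 and 11.3 FPKM in Protophlo, against 57, 36.7, 61.8 and 29.3 FPKM in NSC. None of these samples reached the NSC range, and the log2 fold change was -4.21 ± 0.57 (adjusted p = 3.32e-06) in Xyl, -3.34 ± 0.61 (adjusted p = 0.00106) in CEI and -2.07 ± 0.57 (adjusted p = 0.0154) in Protophlo. In CSC, ARF16 was at 14.9, 15.1 and 12.6 FPKM and called at -1.57 ± 0.61 (adjusted p = 0.0413), which was lost without CSC 1, CSC 2, CSC 3, NSC 1 or NSC 3 (log2 fold change -1.62 to -1.42, adjusted p 0.0755 to 0.103) and with a pseudocount of 0.1 (adjusted p = 0.102). In SCN it was called at -1.74 ± 0.57 (adjusted p = 0.041), and lost without NSC 1, NSC 2, NSC 3, SCN 1, SCN 2 or SCN 4 (log2 fold change -1.83 to -1.51, adjusted p 0.0652 to 0.111) and with a pseudocount of 0.1 (adjusted p = 0.109).

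**Figure D5:**
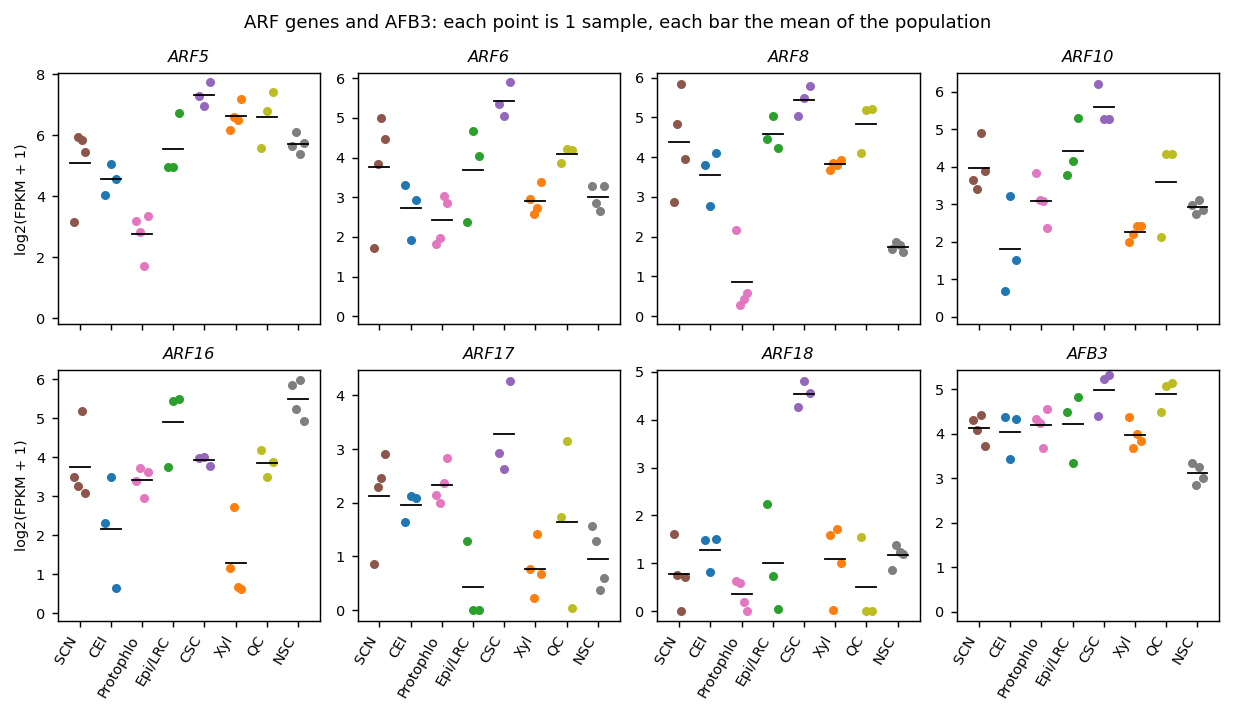
Level of ARF5, ARF6, ARF8, ARF10, ARF16, ARF17 and ARF18 and of the receptor AFB3 as log2(FPKM + 1) in every sample (points) of the 8 populations, with population means as bars and a separate scale for each gene. ARF8 was at 31.9 to 54.5 FPKM in CSC and 2.09 to 2.63 FPKM in NSC, and ARF16 at 0.521 to 5.58 FPKM in Xyl and 29.3 to 61.8 FPKM in NSC.

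Each of the 6 stem cell types was next compared to the mean of the other 5 types, a contrast that leaves NSC out. CSC again held many calls, with 21 of 46 genes (45.7%), against 20.6% of all genes tested. Of these, 14 were higher and 7 lower, against 13.2% and 7.41% of all genes. Xyl had 19 genes (13 higher and 6 lower), against 23.8% of all genes (12.2% higher and 11.6% lower). Protophlo also had 19 genes (8 higher and 11 lower), against 37.9% of all genes (13.6% higher and 24.3% lower). CEI had 5 genes, all lower, against 2.97% of all genes (2.44% higher and 0.538% lower). Epi/LRC had 6 genes (2 higher and 4 lower), against 4.20% of all genes (1.94% higher and 2.26% lower). QC had 1 gene, which was higher, against 1.94% of all genes (1.56% higher and 0.375% lower). With size factors, the split was 10 higher and 9 lower in CSC and 10 higher and 8 lower in Protophlo, 1 higher and 5 lower in CEI, and no gene in QC. Over all 8 populations, the levels of 36 of the 46 genes differed by the moderated F test, against 61.2% of all genes.

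Among the genes called in CSC, the largest changes from the mean of the other types were in IAA20, ARF18 and IAA28. IAA20 (4.73 ± 0.96, adjusted p = 0.00119) and ARF18 (3.69 ± 0.42, adjusted p = 1.19e-06) were higher, and IAA28 (-3.61 ± 0.65, adjusted p = 0.000367) was lower. As given above, IAA20 did not differ between CSC and QC beyond the spread, and IAA28 was also depleted in Epi/LRC and Xyl compared to NSC. In Xyl, IAA29 (4.29 ± 0.45, adjusted p = 1.35e-07), IAA26 (4.08 ± 0.62, adjusted p = 3.28e-05) and IAA12 (3.42 ± 0.52, adjusted p = 3.78e-05) were higher than in the other types, as were IAA8 (2.04 ± 0.23, adjusted p = 4.05e-07) and IAA9 (1.61 ± 0.19, adjusted p = 1.02e-06). In Protophlo, IAA28 was higher (3.69 ± 0.58, adjusted p = 2.39e-05), and IAA33 (-3.71 ± 0.70, adjusted p = 0.000165) and ARF8 (-3.58 ± 0.39, adjusted p = 5.93e-07) were lower. CEI was lower in IAA33 (-4.52 ± 0.79, adjusted p = 0.000598), IAA30 (-2.42 ± 0.50, adjusted p = 0.00411) and IAA20 (-3.62 ± 0.96, adjusted p = 0.0368), of which IAA30 was lost without CEI 3 (log2 fold change -1.39, adjusted p = 0.162), and IAA20 without CEI 1, CEI 2 or CEI 3 (log2 fold change -3.84 to -3.26, adjusted p 0.118 to 0.202) and with a pseudocount of 0.1 (adjusted p = 0.135). In Epi/LRC, IAA33 was higher (3.19 ± 0.79, adjusted p = 0.0205), and IAA30 (-2.92 ± 0.50, adjusted p = 0.000992) and IAA31 (-2.43 ± 0.67, adjusted p = 0.0384) were lower. IAA33 was lost without Epi/LRC 2 or Epi/LRC 3 (log2 fold change 2.85 to 3.15, adjusted p 0.0947 to 0.106), and IAA31 without Epi/LRC 1, Epi/LRC 2 or Epi/LRC 3 (log2 fold change -2.48 to -2.38, adjusted p 0.094 to 0.144) and without a filter (adjusted p = 0.0604). The 1 gene called in QC was IAA14 (1.65 ± 0.44, adjusted p = 0.0547), which was lost in 15 of the 28 fits with a sample left out, and also with size factors, without a filter, with a pseudocount of 0.1 and at an adjusted p-value under 0.05 (adjusted p 0.0547 to 0.154).

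Since CVP2 was low in the Protophlo samples, these comparisons were repeated without them. CEI then had 9 genes (2 higher and 7 lower), Epi/LRC 6, CSC 20, Xyl 14 and QC 2. The calls of IAA33 in Epi/LRC (adjusted p = 0.0612) and CSC (adjusted p = 0.101) and of ARF5 in Xyl (adjusted p = 0.353) were among those lost. Without Protophlo 4, Protophlo had 8 higher and 12 lower genes, and without CEI 2, CEI had 6 lower genes. Without CEI 3, CEI had 2 genes, and without Epi/LRC 2, Epi/LRC had 2.

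Genes around the module were examined from lists of the pathway. The other receptor genes went separate ways. AFB5, known as the receptor of picloram-type auxins, was enriched in SCN, Epi/LRC, CSC, Xyl and QC, with 18.2, 50.5 and 26.5 FPKM in Epi/LRC against 9.49, 9.74, 6.7 and 5.98 FPKM in NSC (log2 fold change 1.77 ± 0.42, adjusted p = 0.00273). The SCN call was lost without NSC 4 (adjusted p = 0.078). AFB4 was depleted in Protophlo, Epi/LRC and Xyl, with 17.1, 3.96 and 18 FPKM in Epi/LRC against 26.6, 23, 34.2 and 38.9 FPKM in NSC (log2 fold change -1.38 ± 0.40, adjusted p = 0.0115). The Epi/LRC call was lost without Epi/LRC 2 (log2 fold change -0.74, adjusted p = 0.162), and those of Protophlo and Xyl without NSC 3, NSC 4, Protophlo 1 or 3, and Xyl 1 or 3 (log2 fold change -1.12 to -0.91, adjusted p 0.0577 to 0.110). With size factors, the Protophlo call was lost as well (-0.99, adjusted p = 0.0713). Of 9 genes of the SCF complex and its regulators, 4 were enriched and 1 depleted in both CSC (44.4% and 11.1%, against 22.6% and 18.3% of all genes) and Xyl (against 20% and 23.5% of all genes). RCE1, an enzyme that attaches the ubiquitin-like RUB protein to cullin, was depleted in CEI, Epi/LRC, CSC and Xyl, with 63.6, 45.7 and 64.7 FPKM in Epi/LRC against 172, 176, 179 and 212 FPKM in NSC (log2 fold change -1.67 ± 0.27, adjusted p = 8.83e-05). The CEI call of RCE1 was lost without CEI 1, CEI 3 or NSC 4 (log2 fold change -0.98 to -0.87, adjusted p 0.0492 to 0.148). ECR1, a subunit of the enzyme that activates RUB, was enriched in Epi/LRC (1.38 ± 0.39, adjusted p = 0.00995), CSC (1.251 ± 0.388, adjusted p = 0.0121) and Xyl (1.64 ± 0.36, adjusted p = 0.000643), and with size factors the CSC call was lost (adjusted p = 0.172). CAND1, which exchanges the F-box subunits of SCF complexes, was depleted in Protophlo (-1.60 ± 0.40, adjusted p = 0.0088) and enriched in Xyl (1.20 ± 0.40, adjusted p = 0.0174), and the Xyl change was under 2-fold with size factors (0.98). Of 5 TOPLESS co-repressor genes, TPR3 was depleted in Protophlo (-2.84 ± 0.48, adjusted p = 0.00026) and SCN (-2.15 ± 0.48, adjusted p = 0.00394). TPR1 was depleted in Protophlo (-1.07 ± 0.34, adjusted p = 0.035) and TPR2 enriched in QC (1.03 ± 0.34, adjusted p = 0.0357). Both were lost with size factors (log2 fold change -0.90 and 0.68). TPR1 was further lost without NSC 1, NSC 2, NSC 3, Protophlo 2 or Protophlo 4 (adjusted p 0.0691 to 0.133). TPR2 was lost without NSC 1, NSC 3, NSC 4, QC 2 or QC 3 (adjusted p 0.0616 to 0.134) and with the replicate block (adjusted p = 0.0665). None of the 7 ARF genes outside the group (ARF12 to ARF15 and ARF20 to ARF22) reached the level needed for testing.

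Among 13 auxin response genes outside the Aux/IAA family, 11 were tested. In Epi/LRC, 1 was enriched and 6 were depleted (9.09% and 54.5%), against 12.5% and 16.6% of all genes, and in Xyl 3 were enriched and 4 depleted (27.3% and 36.4%), against 20% and 23.5%. LBD18, which acts in lateral root emergence, was depleted in all 7 populations, with 0 to 2.04 FPKM in the stem cell samples against 2.62 to 11.3 FPKM in NSC, and no sample overlapped NSC (adjusted p 3.88e-05 to 0.00108). LBD16, known for lateral root initiation, was called depleted in SCN, Protophlo, Epi/LRC, CSC, Xyl and QC. It was listed at 0 in all CSC samples and at 0, 0.869, 0 and 0 FPKM in SCN, against 21.2, 19.6, 4.14 and 15.2 FPKM in NSC (log2 fold change -3.58 ± 0.79 (adjusted p = 0.0034) in SCN). Protophlo, Epi/LRC and Xyl overlapped NSC. The Protophlo call of LBD16 was lost without NSC 1, NSC 2, NSC 4, Protophlo 1, Protophlo 2 or Protophlo 3, without a filter and with a pseudocount of 0.1 (adjusted p 0.0650 to 0.207). Its Epi/LRC call was lost without Epi/LRC 1 or Epi/LRC 3 (adjusted p 0.0779 to 0.0899), and its QC call without QC 2 or QC 3 (adjusted p 0.0643 to 0.0699). TMO7, a mobile target of ARF5, was at 453, 315 and 538 FPKM in CSC, against 78.2, 67.2, 44.1 and 30.6 FPKM in NSC (log2 fold change 3.02 ± 0.83, adjusted p = 0.00538). In Xyl it was at 15.6, 34.7, 8.37 and 4.45 FPKM and called depleted (adjusted p = 0.0365), a call lost without NSC 1, NSC 2, Xyl 3 or Xyl 4 (adjusted p 0.0804 to 0.135) and without a filter (adjusted p = 0.0636). TMO7 was the gene enriched in Epi/LRC (2.22 ± 0.83, adjusted p = 0.0459), and this call was lost with size factors, without a filter, with a pseudocount of 0.1 and with the replicate block (adjusted p 0.0629 to 0.0846) and without Epi/LRC 1, Epi/LRC 2, Epi/LRC 3, NSC 2, NSC 3 or NSC 4 (adjusted p 0.06003 to 0.142). Its QC call (2.61 ± 0.83, adjusted p = 0.0303) was lost without NSC 3, NSC 4, QC 1, QC 2 or QC 3 (adjusted p 0.0630 to 0.0910).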

How the data were processed

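RNA from sorted cells was amplified with a SMARTer-type low input kit and sequenced as 100 bp single-end reads. The table deposited by the authors holds 1 FPKM value for each of 33201 genes in each sample. They state mapping and quantification with Bowtie, the Tuxedo tools and Rsubread, and the submitters' processing notes name TopHat2 2.0.13, Cufflinks 2.1.1 and TAIR10. Normalization between samples beyond FPKM and strand-specific counting are not given in the sources used here. Columns were assigned from the initial or name of the marker and the number of the replicate (C was read as CYCD6, since the CVP2 columns carry that name in full). Library totals were not used here. Depth was estimated from the smallest steps of low FPKM values of single-transcript genes over 1500 bases, and limits the precision of low values.

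FPKM was transformed to log2(FPKM + 1), which understates the change of genes with low FPKM. Genes with at least 1 FPKM in at least 3 samples (22694) were fitted in limma 3.58.1 under R 4.3.3 (1 mean per population, empirical Bayes with a trend), with contrasts of each population with NSC, contrasts of each stem cell type with the mean of the other 5, and a moderated F test. P-values were two-sided and adjusted by Benjamini-Hochberg over all genes tested within a contrast. A call required an adjusted p-value under 0.06 and more than 2-fold, the thresholds of the study, whose own test takes counts and was therefore not used. The fit was tested on simulated data. Tables and sequences were processed with pandas 2.3.3, biopython 1.88, numpy 2.4.6, matplotlib 3.10.9 and scipy 1.17.1 under Python 3.11.15. Sequences, names and overlaps came from RefSeq TAIR10.1.

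The genes, taken from a fixed list of family members that is not complete for the receptors and ARFs, and the pathway lists were chosen with earlier results of these data known. Values of every sample are given for the genes with the 3 largest changes among those called in each contrast, the 8 with the smallest F test p-value and the highest of each family, and for further genes that a result concerns. Of each pathway list, at most 3 genes are given, those called most often. Alternatives were a pseudocount of 0.1, no filter, median-of-ratios size factors (from 10810 genes), only the groups compared, the replicate number as a block, an adjusted p-value under 0.05 and each sample left out. Leaving out the Protophlo samples was added after seeing the data.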

Additional observations from a re-analysis of the deposited data

Results flagged for a closer look

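Groups of 4 samples were checked for 1 sample standing apart (84 groups of 21 genes), where 1 in 20 groups, or about 4, is expected by chance, and 6 were found. ARF8 was at 3.49 FPKM in Protophlo 1, against 0.220 to 0.493 FPKM in the other Protophlo samples. ARF16 was at 35.6 FPKM in SCN 3, against 7.41 to 10.3 FPKM in the other SCN samples, and at 5.58 FPKM in Xyl 2, against 0.521 to 1.23 FPKM in the other Xyl samples. IAA13 was at 5.09 FPKM in Protophlo 4, the sample with the high CASP1 level, against 1.47 to 1.59 FPKM in the other Protophlo samples. IAA29 was at 3.19 FPKM in Protophlo 1 and listed at 0 in the other Protophlo samples. IAA26 was at 3.01 FPKM in NSC 3, below the 4.34 to 4.43 FPKM of the other NSC samples.

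Some genes were enriched in 1 population and depleted in another compared to the same NSC samples. Since these genes were picked for their opposite calls, a difference in that direction was fixed in advance. Its size is given as a description, without a p-value. The difference was 4.55 on the log2 scale for ARF5 between CSC and Protophlo and 3.06 for IAA8 between Xyl and Protophlo. For IAA30 it was 4.48 between CSC and CEI and 4.90 between CSC and Epi/LRC. For IAA6 between Xyl and CSC it was 2.81, a size that depends on the pseudocount because IAA6 was listed at 0 in all CSC samples.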

How the results depend on the processing

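Over all 13 contrasts, 152 calls were made among the 46 genes. Of these, 97 were made in every fit, 105 in all 28 fits with a sample left out and 110 under each alternative that kept all samples, and no call changed direction. The calls lost were 19 with a pseudocount of 0.1, 17 with size factors, 11 without a filter, 9 with the replicate block, 8 with only the groups compared and 7 at an adjusted p-value under 0.05. Without the Protophlo samples, 11 of 127 calls were lost. The cause was not tested.

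Counts of genes moved by more than 1.5 times as follows. With a pseudocount of 0.1, the enriched genes numbered 0 in CEI and 1 in Protophlo and the depleted genes 1 in QC. With size factors, 3 genes were enriched in Epi/LRC. With only the groups compared, 7 genes were depleted in QC and 3 differed between QC and the other types. The QC count against the other types was 0 with a pseudocount of 0.1, without a filter, with size factors and at an adjusted p-value under 0.05. Without the Protophlo samples, 9 genes differed between CEI and the other types, and 2 between QC and the other types.

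With each sample left out in turn, the counts of enriched genes ranged from 0 to 2 in CEI, 0 to 2 in Protophlo and 3 to 5 in Epi/LRC. Those of depleted genes ranged from 1 to 7 in CEI, 5 to 9 in CSC and 0 to 4 in QC, with 7 reached without CEI 2 and 5 without NSC 1. Those against the other types ranged from 2 to 6 in CEI, 2 to 8 in Epi/LRC and 0 to 3 in QC. The other counts stayed within 1.5 times.

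Replicate numbers come from the sample titles, and no source states that equal numbers were collected together. Deviations of same-numbered samples of a stem cell population and NSC correlated at -0.18 to 0.13, and those of other pairs at -0.26 to 0.32. The numbers are therefore not taken as a pairing. With the replicate block, the calls of IAA13, IAA19 and IAA31 in QC were lost and ARF16 was the 1 gene depleted there (adjusted p = 0.0566). In Epi/LRC 11 genes were then depleted, and 35 genes differed by the F test.

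Groups of 3 or 4 samples and low FPKM limit these results. Among the genes with low levels, ARF11 and IAA6 were called enriched in Xyl compared to NSC, and both calls were lost with a pseudocount of 0.1. IAA27 and IAA34, with highest values of 2.05 and 3.76 FPKM, were called in no population compared to NSC. The part that sequencing depth played in this was not tested.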
